A study of Mus musculus with 13 samples.

Results

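The nuclear genes for subunits of the mitochondrial respiratory chain and of ATP synthase were followed across intestinal crypts and adenomas of Apc mutant mice. Members were all probe sets with exactly 1 gene symbol whose symbol begins with Ndufa, Ndufb, Ndufc, Ndufs, Ndufv, Uqcr, Cox4, Cox5, Cox6, Cox7, Cox8 or Atp5, or is Sdha, Sdhb, Sdhc, Sdhd or Cyc1, without pseudogenes and Ndufaf assembly factors. This gave 108 of the 35556 probe sets on the array and 83 of the 19938 genes with a probe set of their own, and each gene was read on its probe set of highest mean level. Complex I accounted for 36 of the genes, complex II for 4, complex III for 9, complex IV for 17 and complex V for 17. The 6 probe sets that name Cox7c, Ndufb4 or Ndufs5 together with a further gene were not used, and the subunits encoded by mitochondrial DNA were not analysed here.

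In the inner mitochondrial membrane, complexes I and II take electrons from NADH and from succinate, complex III passes them through cytochrome c to complex IV, and complex IV reduces oxygen to water. Complexes I, III and IV pump protons as electrons pass, and complex V, the ATP synthase, lets the protons back in and makes ATP. In intestinal epithelium, absorptive cells and stem cells are known for active respiration, and a shift of fuel use away from it has long been discussed in tumours.

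Affymetrix Mouse Gene 1.0 ST arrays were run on RNA of 3 adenomas (Adenoma), of 4 samples of normal small intestinal epithelium with high FP expression (FP_hi) and of 6 with low FP expression (FP_lo). Adenoma and normal samples alike carry the Apc mutation and an FP transgene, so no sample is from a wild-type mouse. The labels do not spell out FP, the promoter that drives it, the Apc allele or the age of the mice. By its title, the series looked for gene expression that goes with ageing and comes ahead of tumours. How many animals the samples came from is not labelled, so a p-value here reflects only how far these samples spread, and part of that spread may be technical. Crypts were picked with glass capillaries, and RNA of an isolated crypt was amplified before labelling. In such bulk samples, fewer cells of a type and less RNA per cell cannot be told apart.

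All values are log2 levels as deposited, a difference is a difference of group means on that scale with its standard error, and a call is an adjusted p under 0.05 over 23410 probe sets (limma, Benjamini-Hochberg). Levels of different probe sets are ranked, sorted into bright and dim and averaged over lists, but are not read as relative amounts of RNA. The array labelled FP_hi replicate 1 stood apart. The SD of its values over the tested probe sets was 1.21, against 1.89 to 2.1 on the other 12 arrays, and its correlation with them was 0.746 to 0.782, against 0.921 to 0.985 among those 12. Markers of epithelium averaged 8.76, 9.62 and 9.54 on the Adenoma arrays, 6.7 on FP_hi replicate 1, 9.02 to 9.67 on the other FP_hi arrays and 8.85 to 9.63 on the FP_lo arrays. Epcam was at 9.24 to 9.33 in Adenoma, at 7.58 on FP_hi replicate 1, at 8.85 to 9.24 on the other FP_hi arrays and at 9.03 to 9.58 in FP_lo. For this reason, group differences from FP_hi are shown both with that array and without it.

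Subunit levels ranged from a mean of 2.66 for Cox7b2 to 12.6 for Cox6c, and 62 of the 83 genes had a mean of 8 or more in FP_lo. Cox7b2, Cox8b, Cox8c, Cox4i2 and Ndufa4l2 lay below 4.64, the median level of all tested probe sets. Cox7b2 and Cox8c are forms of complex IV subunits known from testis and Cox8b a form known from heart and skeletal muscle, while Cox4i2 and Ndufa4l2 are known to respond to low oxygen. Spread between arrays of 1 group went with level. The median SD of the 83 genes was 0.23 in Adenoma, 1.1 in FP_hi, 0.297 in FP_hi without replicate 1 and 0.343 in FP_lo, against 0.17, 0.458, 0.217 and 0.241 for all tested probe sets in the same order. For probe sets at a level of 8 or more it was 0.251, 1.26, 0.301 and 0.283, so the subunits varied more than bright probe sets in FP_lo alone. In FP_lo the SD ran from 0.118 for Cox6c, a small subunit of complex IV, to 1.45 for Cox7a1. Ndufs5 and Cox6b2 followed Cox7a1 with SDs of 0.899 and 0.756, and Atp5j2 and Cox8c were, with Cox6c, the 3 with the least spread.

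**Figure D1:**
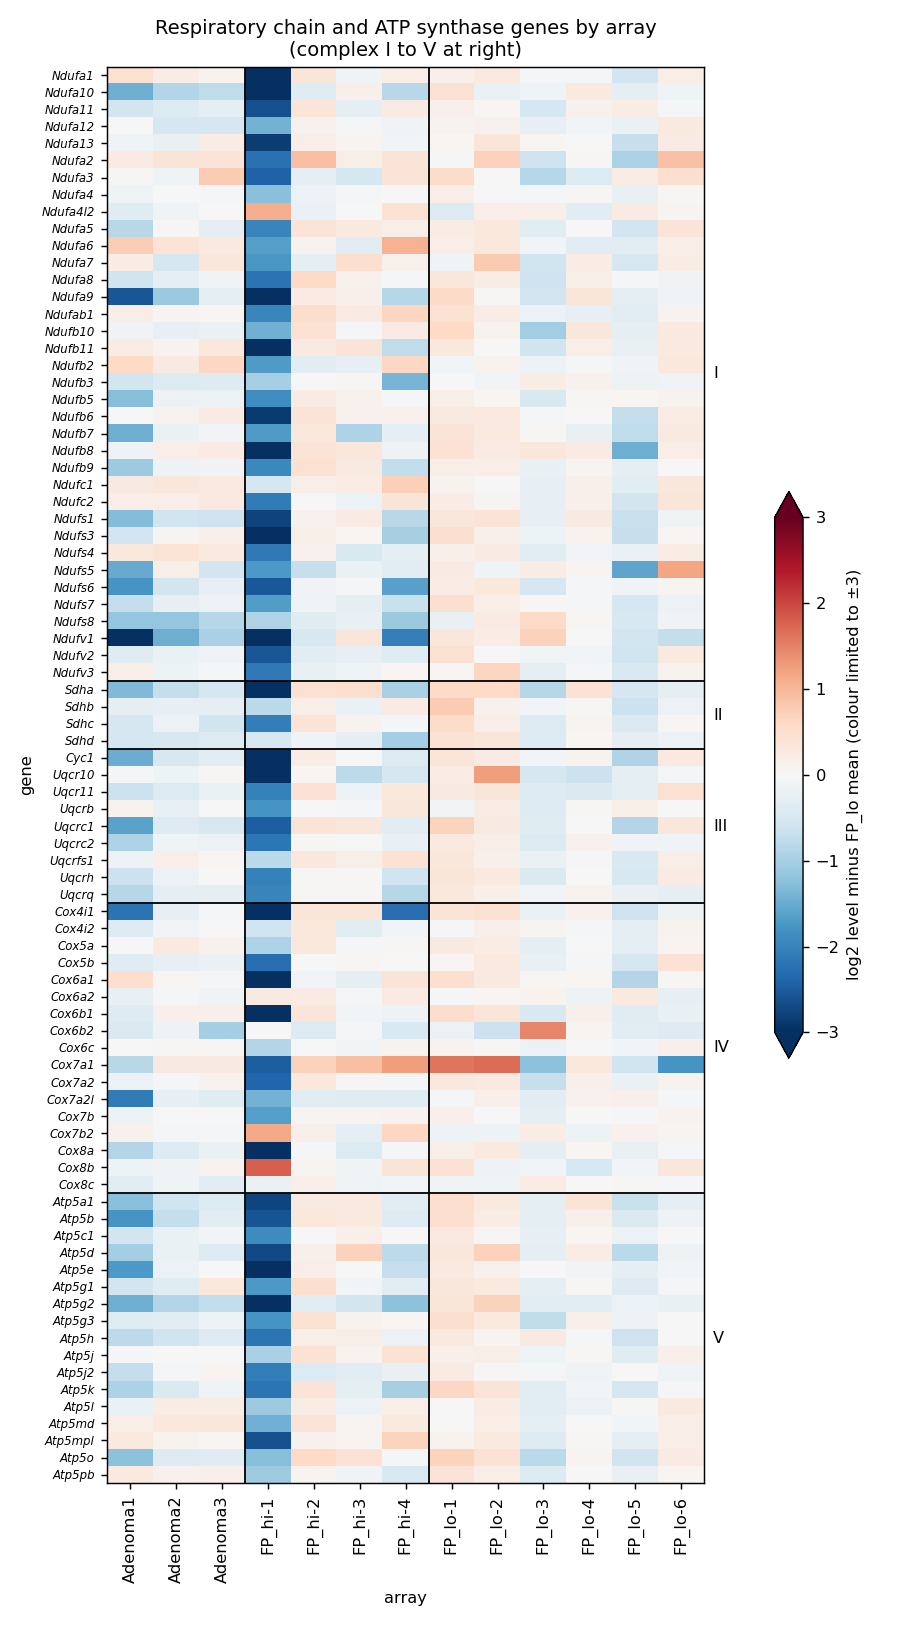
Log2 level minus the FP_lo mean for the 83 subunit genes (down the page, by complex I to V) on the 13 arrays (across, Adenoma, then FP_hi, then FP_lo), with the colour limited to 3 log2 units either way. The column of FP_hi replicate 1 is lower almost throughout, with a median of -2.03, while the other columns have medians between -0.382 and 0.283.

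Normal epithelium with high FP was set against that with low FP, the comparison at the centre of the series' title. No subunit gene was called, and no probe set on the array was (0 of 83 genes, against 0% of all tested probe sets by limma). At an unadjusted p under 0.05 there were 8 genes, all lower in FP_hi, or 9.64% of the members, against 12.7% of all tested probe sets in either direction and 7.95% in the lower direction. They were 5 subunits of complex I, Sdhd of complex II, and Atp5g2 and Atp5j2 of ATP synthase. The median difference of the 83 genes was -0.519, against 0.053 over all tested probe sets, and 76 of them had a difference below 0, against 43.7% of all probe sets. By complex, the median was -0.594 for complex I, -0.433 for II, -0.587 for III, -0.225 for IV and -0.437 for V. The value for complex IV includes Cox4i2, Cox7b2, Cox8b and Cox8c, which lay below the median level of all tested probe sets. On FP_hi replicate 1, Cox7b2 and Cox8b deviated from the FP_lo mean by 1.143 and 1.787, and Cox4i2 and Cox8c by -0.595 and -0.206.

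The size of that median rested on 1 array. On FP_hi replicate 1 the median deviation of the 83 genes from the FP_lo mean was -2.03, and 78 of them (94%) lay below all 6 FP_lo arrays, against 34.6% of all tested probe sets. On FP_hi replicates 2, 3 and 4 the median deviation was 0.175, 0.00148 and -0.0715. On FP_hi replicate 1 bright probe sets in general were low in the same way: of the 1857 with an FP_lo mean of 8 or more, 98.5% were below all FP_lo arrays, with a median of -2.63, and the 62 bright subunit genes had a median of -2.16. The subunits on that array thus moved with bright probe sets in general, and what lowered either was not tested.

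**Figure D2:**
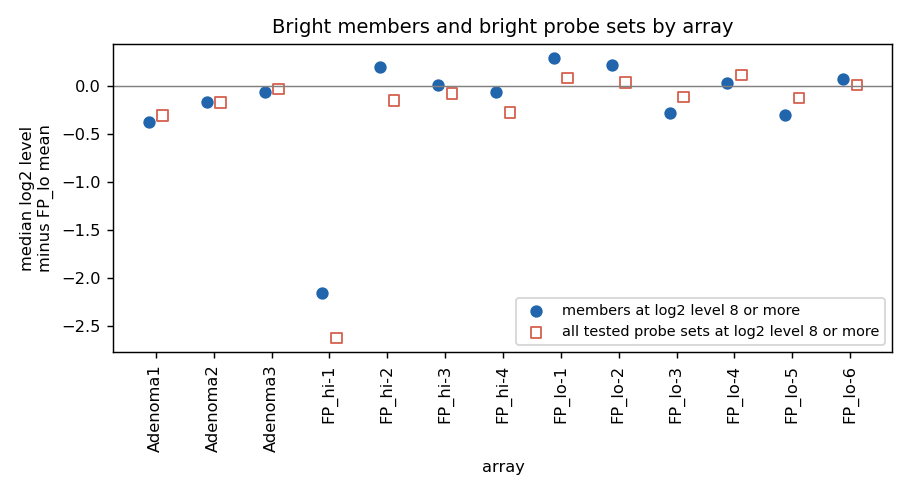
Median deviation from the FP_lo mean (log2, vertical axis) on each of the 13 arrays, for the 62 subunit genes with an FP_lo mean of 8 or more and for all 1857 tested probe sets that bright. On FP_hi replicate 1 both are low, at -2.16 and -2.63, and on the other arrays both lie within 0.5 of 0.

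Without FP_hi replicate 1 the median difference of the 83 genes was 0.021 and 37 had a difference below 0, against 45.4% of all tested probe sets. Again no gene was called in either the members or the whole table (0%), and the smallest adjusted p of a member was 0.478. At an unadjusted p under 0.05 there were 5 genes (6.02%), 3 higher and 2 lower, against 8.53% of all probe sets, 3.69% higher and 4.84% lower. Ndufab1, Ndufc1 and Atp5j were higher by 0.47 ± 0.173, 0.37 ± 0.166 and 0.32 ± 0.137, and Ndufs8 and Atp5g2 were lower. Ndufab1, Ndufc1 and Atp5j lie outside the naming rule for this fit and were named after their values were seen, as were the genes named below because their groups do not overlap. The medians by complex, in the order I to V, were -0.00691, 0.029, -0.0589, 0.0153 and 0.0582.

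Ndufs8, an iron-sulfur subunit in the arm of complex I that hands electrons to ubiquinone, had the smallest p of all members between FP_hi and FP_lo. It was at 6.25, 6.78, 6.91 and 6.04 in FP_hi, against a lowest of 6.65, a median of 7.10 and a highest of 7.71 in FP_lo. FP_hi replicates 2 and 3 lay inside the FP_lo range and the other two below it. The difference was -0.65 ± 0.225 (adjusted p = 0.353), and without FP_hi replicate 1 it was -0.57 ± 0.239 (adjusted p = 0.544).

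Atp5g2 is one of the genes for subunit c, which forms the rotating ring of ATP synthase in the membrane. Its levels were 5.17, 8.612, 8.40 and 7.71 in FP_hi, against 8.615 at the lowest, 8.74 at the median and 9.63 at the highest in FP_lo. All 4 FP_hi arrays lay below all 6 FP_lo arrays, with FP_hi replicate 2 at the very edge of the FP_lo range. The difference was -1.47 ± 0.541 (adjusted p = 0.367), and without FP_hi replicate 1 it was -0.70 ± 0.275 (adjusted p = 0.505).

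Atp5j2, a small subunit of the membrane part of ATP synthase, was at 10.33, 11.99, 12.05 and 12.18 in FP_hi, against 12.28, 12.38 and 12.64 as the lowest, median and highest in FP_lo. Cox7a2l, known for its part in joining complex III and complex IV into supercomplexes, was at 8.0, 9.10, 9.07 and 9.07 in FP_hi, against 9.11, 9.47 and 9.58 in FP_lo. In both genes the groups did not overlap, but 3 of the 4 FP_hi arrays lay close under the lowest FP_lo array. With Atp5g2 these were the 3 subunit genes below FP_lo without overlap, or 3.61% of the 83, against 1.51% of all probe sets. The same 3 genes did not overlap without FP_hi replicate 1, against 1.81% of all probe sets, where Atp5j2 was lower by 0.33 and Cox7a2l by 0.35. No subunit lay above FP_lo without overlap, against 0.743% of all probe sets with all arrays and 1.39% without FP_hi replicate 1.

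Differences above 0 between FP_hi and FP_lo were led by dim genes. Cox7b2 was at 3.68, 2.70, 2.26 and 3.15 in FP_hi, against 2.37, 2.51 and 2.76 as the lowest, median and highest in FP_lo. Cox8b was at 5.46, 3.75, 3.56 and 4.06 in FP_hi, against 3.20, 3.59 and 4.09 in FP_lo. In both, FP_hi replicate 1 was the highest array. Of the rest, Cox7b2 was above the FP_lo range on FP_hi replicate 4 and below it on replicate 3, and the others lay inside the FP_lo range. The differences were 0.41 ± 0.224 (adjusted p = 0.405) for Cox7b2 and 0.54 ± 0.316 (adjusted p = 0.419) for Cox8b. With replicates 2 to 4 alone they were 0.17 ± 0.173 and 0.12 ± 0.192 (adjusted p = 0.844 and 0.91). On FP_hi replicate 1 dim probe sets with an FP_lo mean under 5 had a median deviation of 0.503.

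**Figure D3:**
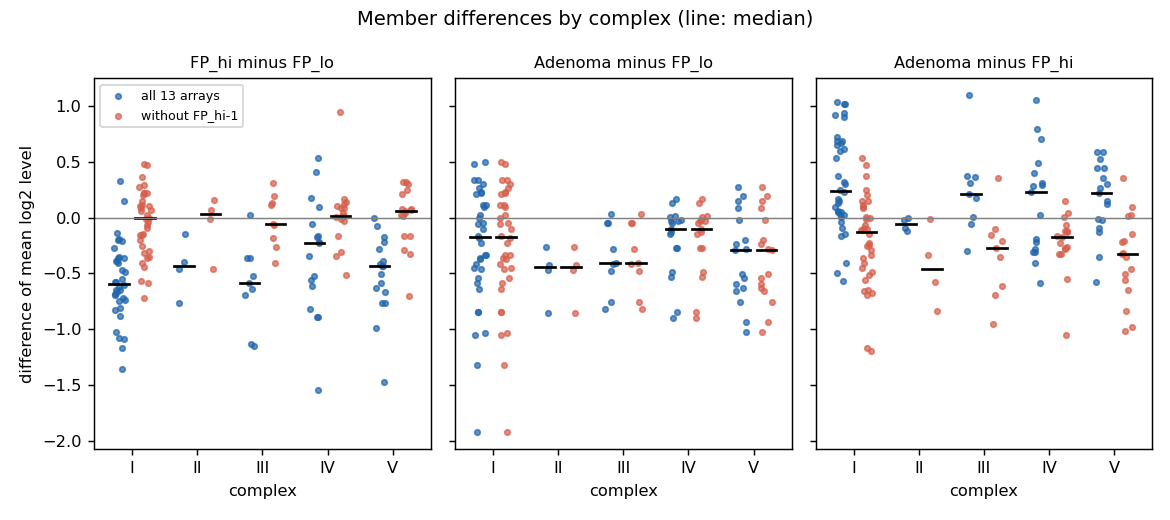
Difference of mean log2 level for each subunit gene (dots), by complex, in the 3 comparisons, fitted on all 13 arrays and without FP_hi replicate 1, with the median of each complex as a line. Between FP_hi and FP_lo the medians of all 83 genes are -0.519 with all arrays and 0.021 without FP_hi replicate 1, and between Adenoma and FP_lo they are -0.265 in both.

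The largest spread within FP_hi was that of Cox4i1, the widely expressed form of complex IV subunit 4, with an SD of 2.41. It was at 6.26, 11.26, 11.27 and 8.62 in FP_hi, against 10.27, 10.89 and 11.36 as the lowest, median and highest in FP_lo. FP_hi replicates 1 and 4 lay below every FP_lo array, and replicates 2 and 3 near the top of the FP_lo range. Its difference was -1.55 ± 0.836 (adjusted p = 0.402), and -0.52 ± 0.599 without FP_hi replicate 1 (adjusted p = 0.865). On FP_hi replicate 4, 22 subunit genes (26.5%) were below all FP_lo arrays and 13 (15.7%) above, against 14.2% and 21.2% of all tested probe sets, while 42.8% of bright probe sets were below.

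Adenomas were then set against FP_lo epithelium, normal tissue that the labels place next to adenomas. No subunit gene was called, against 0.551% of all tested probe sets (125 higher and 4 lower by limma, and 136 higher and 49 lower after quantile normalization). At an unadjusted p under 0.05 there were 3 genes (3.61%), Ndufs8, Ndufv1 and Cox7a2l, all lower in Adenoma, against 7.45% of all probe sets in either direction and 3.2% in the lower one. The median difference of the 83 genes was -0.265, against -0.063 over all probe sets, and 61 (73.5%) had a difference below 0, against 61% of all probe sets. Below 0 were 23 of 36 genes of complex I, 4 of 4 of complex II, 8 of 9 of complex III, 13 of 17 of complex IV and 13 of 17 of complex V, with medians of -0.174, -0.447, -0.411, -0.101 and -0.291. Without FP_hi replicate 1, which enters this comparison only through the estimate of the spread, there was still no called subunit, against 1.58% of all probe sets. At an unadjusted p under 0.05 there were then 18 (21.7%, against 14.6% of all probe sets), 17 lower (against 8.07%) and Ndufb2 higher (against 6.5%).

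These values rested in good part on Adenoma replicate 1. The median deviation from the FP_lo mean was -0.382, -0.165 and -0.0747 on Adenoma replicates 1, 2 and 3. On replicate 1, 38 of the 83 genes (45.8%) were below all FP_lo arrays, against 21.4% of all probe sets and 46.7% of those with an FP_lo mean of 8 or more. On replicates 2 and 3 it was 12 genes each (14.5%), against 18.7% and 19.6% of all probe sets and 35.1% and 19.9% of those bright ones. The bright probe sets had median deviations of -0.307, -0.171 and -0.0298 on replicates 1, 2 and 3. The 62 bright subunit genes had -0.375, -0.162 and -0.0635, so they moved about as far as bright probe sets in general. Over the 83 genes, the median deviation of single FP_lo arrays from their own mean ran from -0.301 on replicate 5 to 0.283 on replicate 1. Without Adenoma replicate 1 the median difference was -0.127.

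Complex I held the smallest p-values. Ndufs8 was at 5.99, 5.98 and 6.29 in Adenoma, against 6.65 at the lowest, 7.10 at the median and 7.71 at the highest in FP_lo. All 3 adenomas lay below all 6 FP_lo arrays and close to each other. The difference was -1.05 ± 0.246 (adjusted p = 0.106), the smallest adjusted p of any subunit. It was 0.0536 without FP_hi replicate 1, 0.0447 when only these groups were fitted and 0.00614 with array quality weights. The call thus depended on how the spread was estimated. With only these groups, 2 of 83 members and 343 of 23410 tested probe sets were called. With weights, it was 3 of 83 and 868 of 23410.

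Ndufv1, which binds NADH and the flavin that takes its electrons, was at 3.56, 5.44 and 5.92 in Adenoma, against 6.18, 7.0 and 7.59 as the lowest, median and highest in FP_lo. Here too the groups did not overlap, but the adenomas differed from each other by more than FP_lo arrays did. The difference was -1.92 ± 0.704 (adjusted p = 0.473, or 0.133 without FP_hi replicate 1). Ndufa10, an accessory subunit of complex I, was at 8.26, 8.86 and 8.98 in Adenoma, against 9.43, 9.60 and 10.19 in FP_lo. It did not overlap either, with a difference of -1.03 ± 0.559. The adjusted p was 0.765 with all arrays, 0.0612 without FP_hi replicate 1, 0.0498 with only these groups and 0.0308 with weights. Of the 23410 tested probe sets, the fit with only these groups called 343 and the fit with weights 868.

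Other core subunits of complex I stayed closer to FP_lo. Ndufs1, the large iron-sulfur subunit, was at 7.16, 7.86 and 7.84 in Adenoma, against 7.80, 8.54 and 8.86 as the lowest, median and highest in FP_lo (difference -0.84 ± 0.535, adjusted p = 0.839). Ndufs3, Ndufs7 and Ndufv2 differed by -0.11 ± 0.607, -0.37 ± 0.312 and -0.22 ± 0.432. Of the accessory subunits, Ndufb3 did not overlap with FP_lo and was lower by 0.45 in Adenoma.

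Differences above 0 between Adenoma and FP_lo were led by accessory subunits of complex I, none of them called. Ndufs4, an accessory subunit needed for a stable NADH-oxidising module, was at 10.24, 10.32 and 10.22 in Adenoma, against 9.58, 9.96 and 10.16 as the lowest, median and highest in FP_lo. It was the only subunit gene above FP_lo without overlap (1.2% of the members, against 3.67% of all probe sets), by a narrow margin. The difference was 0.34 ± 0.375 (adjusted p = 0.971). Ndufb2, Ndufa6 and Ndufc1 had differences of 0.50, 0.48 and 0.30 and adjusted p-values of 0.882, 0.931 and 0.896.

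**Figure D4:**
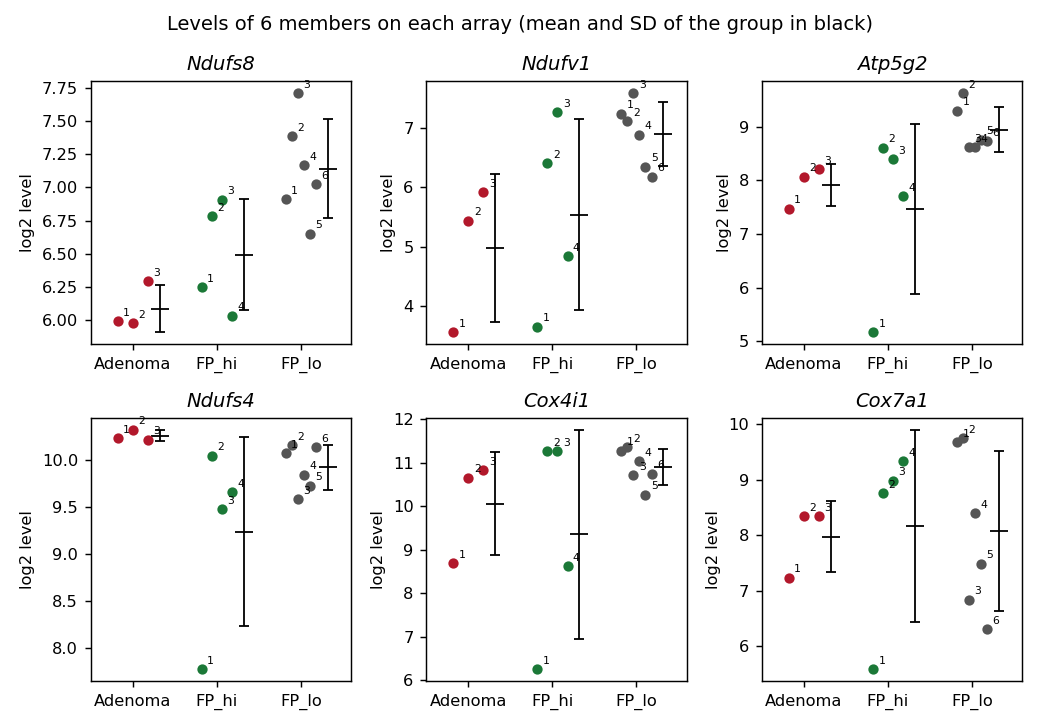
Log2 levels of Ndufs8, Ndufv1, Atp5g2, Ndufs4, Cox4i1 and Cox7a1 on each array (dots numbered by replicate) in Adenoma, FP_hi and FP_lo, with bars for the mean and SD. Adenomas lie below all FP_lo arrays in Ndufs8 (5.98 to 6.29, against 6.65 to 7.71), Ndufv1 and Atp5g2 and above them in Ndufs4, while Cox7a1 spans 6.31 to 9.75 within FP_lo.

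The 4 subunits of complex II, which is also an enzyme of the citric acid cycle, all had a mean below that of FP_lo. Sdhd, a membrane anchor, was at 5.71, 5.75 and 5.81 in Adenoma, against 5.83, 6.17 and 6.65 as the lowest, median and highest in FP_lo, and the groups did not overlap. Its difference was -0.47 ± 0.227 (adjusted p = 0.69). Sdha, the flavoprotein that oxidises succinate, differed by -0.85 ± 0.647, Sdhb, its iron-sulfur partner, by -0.26 ± 0.28, and Sdhc, the other anchor, by -0.42 ± 0.438.

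In complex III, Uqcrc1 and Uqcrc2, the core proteins, differed by -0.82 ± 0.566 and -0.41 ± 0.414, and Cyc1, cytochrome c1, by -0.76 ± 0.794. Uqcrfs1, the Rieske iron-sulfur protein, was at 8.67, 9.01 and 8.87 in Adenoma, against 8.37, 8.87 and 9.15 in FP_lo, with a difference of 0.034 ± 0.259. It lay inside the FP_lo range on every adenoma array. Uqcrq, a small subunit, was the complex III gene below FP_lo without overlap, at 7.66, 8.23 and 8.22 in Adenoma, against 8.25, 8.53 and 8.83 in FP_lo (adjusted p = 0.904).

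Complex IV differed least by its median, which includes the dim forms Cox4i2, Cox7b2, Cox8b and Cox8c. Cox4i1 was at 8.69, 10.66 and 10.83 in Adenoma, against 10.27 to 11.36 in FP_lo, and Adenoma replicate 1 alone lay outside that range (difference -0.84 ± 0.915, adjusted p = 0.967). Cox7a2l was at 7.33, 9.18 and 9.07 in Adenoma, against 9.11 to 9.58 in FP_lo, with Adenoma replicate 1 far below and the other two at the lower edge (difference -0.90 ± 0.367, adjusted p = 0.568). Cox5a and Cox5b, which with Cox4i1 are among the larger nuclear subunits of the complex, differed by 0.13 ± 0.238 and -0.27 ± 0.435.

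In ATP synthase, Atp5g2 was at 7.48, 8.07 and 8.21 in Adenoma, against 8.61 at the lowest, 8.74 at the median and 9.63 at the highest in FP_lo. The groups did not overlap, and the difference was -1.03 ± 0.593. The adjusted p was 0.797 with all arrays, 0.094 without FP_hi replicate 1 and 0.0479 with weights. The fit with weights called 868 of the 23410 tested probe sets. Atp5a1 and Atp5b, the alpha and beta subunits that carry the catalytic sites, differed by -0.76 ± 0.561 and -0.94 ± 0.545, and Atp5c1, the gamma shaft, by -0.28 ± 0.363. With Ndufs8, Ndufv1, Ndufa10, Ndufb3, Sdhd and Uqcrq, Atp5g2 made 7 genes below FP_lo without overlap (8.43%, against 5.64% of all probe sets).

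The promoters of 4 genes whose adenoma and FP_lo levels did not overlap are given, with the letters of binding motifs known from nuclear genes of respiration. The genes were picked for print after their values were seen. Each covers 250 bases before to 50 after the start site (300 bases, RefSeq, GRCm38.p6), read 5′ to 3′ on the gene's strand, with motif letters in capitals. The motifs searched on both strands were GCGCA and GCGC with any base between them (NRF1), CCGGAAG (ETS family, which includes GABP), AAGATGG (YY1) and AAGGTCA (ERR family).
Ndufs8 promoter (chr19:3912725-3913024, minus strand): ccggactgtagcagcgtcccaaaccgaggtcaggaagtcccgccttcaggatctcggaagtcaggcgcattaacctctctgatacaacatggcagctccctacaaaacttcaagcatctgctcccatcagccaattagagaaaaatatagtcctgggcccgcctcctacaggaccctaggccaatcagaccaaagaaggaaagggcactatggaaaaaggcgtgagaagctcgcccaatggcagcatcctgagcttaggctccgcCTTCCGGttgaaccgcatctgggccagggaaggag
Ndufv1 promoter (chr19:4012706-4013005, minus strand): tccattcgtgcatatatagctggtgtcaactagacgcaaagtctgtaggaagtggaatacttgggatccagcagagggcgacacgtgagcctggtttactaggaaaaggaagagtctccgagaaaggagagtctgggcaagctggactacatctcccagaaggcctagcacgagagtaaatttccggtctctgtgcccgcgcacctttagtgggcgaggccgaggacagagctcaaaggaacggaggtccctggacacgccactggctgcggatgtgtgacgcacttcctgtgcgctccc
Atp5g2 promoter (chr15:102670998-102671297, minus strand): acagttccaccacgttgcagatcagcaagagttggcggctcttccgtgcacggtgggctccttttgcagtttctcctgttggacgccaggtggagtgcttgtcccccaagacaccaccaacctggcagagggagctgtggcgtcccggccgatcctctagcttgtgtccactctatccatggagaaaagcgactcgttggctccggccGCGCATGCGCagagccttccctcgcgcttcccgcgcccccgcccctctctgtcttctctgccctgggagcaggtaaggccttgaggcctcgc
Ndufs4 promoter (chr13:114388045-114388344, minus strand): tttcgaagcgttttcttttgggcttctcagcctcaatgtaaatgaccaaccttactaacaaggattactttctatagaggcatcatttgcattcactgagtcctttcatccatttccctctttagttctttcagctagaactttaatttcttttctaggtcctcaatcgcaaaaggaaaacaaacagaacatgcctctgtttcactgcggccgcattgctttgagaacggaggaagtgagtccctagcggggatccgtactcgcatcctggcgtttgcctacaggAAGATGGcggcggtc
In Ndufs8 the capitals mark the ETS letters on the opposite strand, just after the start, in Atp5g2 the NRF1 letters shortly before the start, and in Ndufs4 the YY1 letters just after it. The window of Ndufv1 held none of the 4. Among 72 promoters of 67 members, 23.6% held the NRF1 letters, against 4.6% of all 32851 mouse promoters in the table, 23.6% the ETS letters, against 8.86%, 13.9% the YY1 letters, against 6.34%, and 9.72% the ERR letters, against 4.72%. At least 1 of the first 3 motifs was in 38 member promoters (52.8%), against 18% of all. A match of letters is a description and was not tested as a site, and the genes with a motif included some lower in Adenoma (Ndufs8, Atp5g2) and some higher (Ndufs4, Ndufa6).

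Ndufs8 and Ndufv1 both lie on chromosome 19 with 8 protein-coding genes between them. Of these, 7 were measured, and their differences between Adenoma and FP_lo ran from -0.39 for Aldh3b3 to 0.16 for Aldh3b2. Gstp1 and Gstp3, on the far side of Ndufv1, differed by -0.93 and -0.62, and Kmt5b, Chka and Tcirg1, on the far side of Ndufs8, by 0.22, 0.10 and 0.060. The genes between the pair were nearer 0 than the pair itself, though the differences between genes were not tested. Some of them were dim, which leaves little room for a fall. In FP_lo, Aldh3b1 was at 4.03 to 4.36 and Unc93b1 at 3.67 to 4.41, under the median level of 4.64, while Aldh3b3 was at 6.2 to 6.96.

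The last comparison set adenomas against FP_hi epithelium, and it shares arrays with both comparisons above. No subunit gene was called, against 0.765% of all probe sets (175 higher and 4 lower by limma, and 157 higher and 25 lower after quantile normalization). With the replicate number as a block, there was again no subunit and 51 probe sets were called. At an unadjusted p under 0.05 there were 3 genes (3.61%), all higher in Adenoma, against 15.7% of all probe sets in either direction and 8.38% in the higher one. The median difference was 0.216, against -0.11 over all probe sets, and 26 genes had a difference below 0, against 59.6% of all probe sets. Without FP_hi replicate 1 it was -0.229, against -0.084, so its sign rested on that array.

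Ndufs4 was at 10.24, 10.32 and 10.22 in Adenoma, against 7.77, 10.05, 9.47 and 9.65 in FP_hi. The adenomas lay above all FP_hi arrays, with a difference of 1.02 ± 0.405 (adjusted p = 0.271), and of 0.53 ± 0.185 without FP_hi replicate 1 (adjusted p = 0.202). Atp5pb, the subunit b of the stalk that holds the catalytic head of ATP synthase, was at 10.81, 10.65 and 10.67 in Adenoma, against 9.44, 10.60, 10.40 and 10.05 in FP_hi. It lay above FP_hi too, by 0.59 ± 0.258 (adjusted p = 0.305), or by 0.36 ± 0.202 without FP_hi replicate 1 (adjusted p = 0.4). The dimmer probe set of Atp5pb did not bear this out, with differences of 0.203 with all arrays and -0.082 without that array. On the probe sets used, Ndufs4 and Atp5pb were the 2 subunits above FP_hi without overlap (2.41%, against 6.74% of all probe sets). With all arrays none lay below (10.4% of all probe sets). Ndufb2 differed by 0.91 ± 0.388 (adjusted p = 0.297), or by 0.47 ± 0.228 without that array (adjusted p = 0.338), and its groups overlapped.

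Without FP_hi replicate 1, 64 of the 83 genes were lower in Adenoma than in FP_hi, against 62.5% of all probe sets. No subunit was called, against 1.1% of all probe sets, and 15 had an unadjusted p under 0.05 (18.1%, against 16%). Of these, 14 were lower (against 8.69% of all probe sets) and Ndufs4 was higher (against 7.35%). Without overlap 18 lay below FP_hi (21.7%, against 15.6% of all probe sets), and Ndufs4 and Atp5pb above it (against 8.3%). Atp5h, a subunit of the stalk, had the smallest adjusted p, 0.187, with a difference of -0.65 ± 0.219, and Atp5b and Atp5a1 were lower by 1.02 and 0.83. By complex, from I to V, the medians were -0.126, -0.458, -0.274, -0.171 and -0.328.

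Complex IV has subunits with separate forms in different tissues, and the form known from heart and skeletal muscle, Cox7a1, varied most within FP_lo. It was at 7.23, 8.35 and 8.34 in Adenoma, at 5.6, 8.76, 8.98 and 9.34 in FP_hi, and at 9.67, 9.75, 6.84, 8.40, 7.49 and 6.31 in FP_lo. FP_lo replicates 1 and 2 were high and replicates 3 and 6 low, and the groups overlapped throughout. Cox7a2, the widely expressed form, stayed at 9.75 to 10.03 in Adenoma, 7.53 on FP_hi replicate 1, 9.88 to 10.23 on the other FP_hi arrays and 9.23 to 10.22 in FP_lo.

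Markers of absorptive enterocytes moved with Cox7a1 between arrays. The mean level of the 9 markers was 8.31, 8.67 and 8.23 in Adenoma, 7.17, 10.3, 10.9 and 8.67 in FP_hi, and 9.68, 9.51, 7.36, 9.01, 8.27 and 6.77 in FP_lo. The FP_lo arrays fall in nearly the same order for both, with replicates 1 and 2 high and 3 and 6 low, while FP_hi replicate 4 is highest for Cox7a1 and not for the markers. Muscle markers averaged between 4.35 and 5.18 on all arrays. Between FP_hi and FP_lo the 9 markers all had a difference above 0, with a median of 0.89 with all arrays and 1.58 without FP_hi replicate 1. None was called, against 0% of all tested probe sets. The part of enterocyte content in the Cox7a1 levels, or in the other subunits, was not tested. The Cox7a1 promoter is given because no letters of the 4 motifs occur in it. That is not particular to Cox7a1, since only 52.8% of member promoters held any of the first 3 motifs and Ndufv1 held none of the 4.
Cox7a1 promoter (chr7:30183921-30184220, plus strand): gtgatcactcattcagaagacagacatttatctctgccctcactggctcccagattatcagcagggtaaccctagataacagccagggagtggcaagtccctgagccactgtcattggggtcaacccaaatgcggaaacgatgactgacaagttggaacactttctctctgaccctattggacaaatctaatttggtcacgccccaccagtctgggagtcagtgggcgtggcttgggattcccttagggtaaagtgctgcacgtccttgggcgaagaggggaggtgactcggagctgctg

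None of the other tissue or condition forms was called in any comparison. With all arrays, 0% to 0.765% of all tested probe sets were called. Cox6a2, a muscle form, was at 5.05 to 5.21 in Adenoma, 5.21 to 5.56 in FP_hi and 5.03 to 5.57 in FP_lo. Ndufa4l2 was at 3.79 to 4.13 in Adenoma, 3.94 to 5.23 in FP_hi and 3.74 to 4.39 in FP_lo. Its relative Ndufa4, a bright gene first assigned to complex I and later to complex IV, was at 12.06 to 12.21 in Adenoma, 10.94 on FP_hi replicate 1, 12.03 to 12.20 on the other FP_hi arrays and 11.97 to 12.39 in FP_lo. Cox6b2, a testis form, was at 4.15 to 5.02 in Adenoma, 4.72 to 5.18 in FP_hi and 4.51 to 6.63 in FP_lo, where replicate 3 alone gave the high value. Between Adenoma and FP_lo, Cox4i2 differed by -0.15 and Cox8c by -0.27 (adjusted p = 0.982 and 0.713).

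Several members had more than 1 probe set, which gives a check within the same RNA. The 3 probe sets of Atp5g2 differed between Adenoma and FP_lo by -1.03, -1.12 and -0.99, and between FP_hi and FP_lo by -1.47, -1.30 and -1.13. Leaving out FP_hi replicate 1, the last became -0.70, -0.69 and -0.62. Those of Ndufs3 differed between FP_hi and FP_lo by -1.03 and -0.95, and by -0.25 and -0.19 without that array. Cox7a2l gave -0.90 and -0.52 between Adenoma and FP_lo, alike in sign. Ndufb11 differed between FP_hi and FP_lo by -0.83 on its brighter probe set and -0.057 on the dimmer with all arrays, and by -0.036 and 0.020 without FP_hi replicate 1. Whether these probe sets also read processed copies of the genes elsewhere in the genome was not tested.

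Genes that build, feed and regulate the respiratory chain were read from lists alongside the subunits. Of 16 measured enzymes of the citric acid cycle and pyruvate dehydrogenase, none was called between Adenoma and FP_lo, against 0.551% of all tested probe sets, and 16 had a difference below 0, against 61%, with a median of -0.632. By array, the list's median deviation from the FP_lo mean was -1.02, -0.386 and -0.351 on Adenoma replicates 1, 2 and 3. On single FP_lo arrays it ran from -0.366 on replicate 5 to 0.543 on replicate 2, so Adenoma replicate 1 lay furthest from FP_lo. Idh3g, a subunit of the NAD-dependent isocitrate dehydrogenase, was at 8.22, 8.22 and 8.37 in Adenoma, at 4.95, 9.21, 9.54 and 9.20 in FP_hi, and at 9.0 to 9.56 in FP_lo. The adenomas lay below every normal array but FP_hi replicate 1. Without that array Idh3g fell in Adenoma, by 1.04 ± 0.14 on the log2 scale against FP_lo (adjusted p = 0.0028) and by 1.05 ± 0.161 against FP_hi (adjusted p = 0.00939). With that array the difference was -1.04 ± 0.764 from FP_lo (adjusted p = 0.886) and 0.045 ± 0.825 from FP_hi (adjusted p = 0.977). Between FP_hi and FP_lo the list's median was -0.541 with all arrays and 0.0536 without FP_hi replicate 1.

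Of 42 assembly factors, 26 had a difference below 0 between Adenoma and FP_lo (median -0.161), a share near the 61% of all tested probe sets. None was called with all arrays, against 0.551% of all tested probe sets. Without FP_hi replicate 1, Lrpprc, which stabilises mitochondrial mRNAs, fell by 0.877 ± 0.17 in Adenoma (adjusted p = 0.0241, against 0.709 with all arrays). It was at 7.43, 7.38 and 7.68 in Adenoma, and at 8.17 to 8.58 in FP_lo. Between FP_hi and FP_lo the assembly factors had a median of -0.43 with all arrays and -0.151 without FP_hi replicate 1. Mitochondrial ribosomal proteins, which make the subunits encoded by mitochondrial DNA, numbered 77. Their median was -0.18 between Adenoma and FP_lo, with 57 below 0 (against the same 61%) and none called (against 0.551%). Between FP_hi and FP_lo it was -0.481 with all arrays and -0.156 without FP_hi replicate 1, again with none called (against 0% of all tested probe sets).

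Among 16 regulators of mitochondrial biogenesis, none was called with all arrays in any comparison. The shares of all tested probe sets called were 0% for FP_hi against FP_lo, 0.551% for Adenoma against FP_lo and 0.765% for Adenoma against FP_hi. Tfb1m, which methylates mitochondrial ribosomal RNA, was lower on most FP_hi arrays. It was at 5.31, 4.52, 4.22 and 4.09 in FP_hi, against 6.41, 6.21, 5.63, 5.79, 5.29 and 5.79 in FP_lo, so that only FP_hi replicate 1 reached the FP_lo range. The difference was -1.32 ± 0.277 (adjusted p = 0.152), and -1.58 ± 0.247 without that array (adjusted p = 0.139). Ppargc1a, a coactivator that induces respiratory genes, was at 5.39, 6.58, 7.51 and 7.92 in FP_hi, against 4.81 to 7.04 in FP_lo. Its difference was 0.883 ± 0.488 (adjusted p = 0.407), or 1.37 ± 0.427 without FP_hi replicate 1 (adjusted p = 0.378).

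Tfam, which packages and transcribes mitochondrial DNA, was at 6.15, 6.37 and 6.99 in Adenoma, against 7.15 to 7.99 in FP_lo, with no overlap and a difference of -0.961 ± 0.283 (adjusted p = 0.25). Esrrg, a nuclear receptor that acts on genes of oxidative metabolism, differed by -1.23 ± 0.353 (adjusted p = 0.231). Ppargc1b, a relative of Ppargc1a, fell in Adenoma against FP_hi without replicate 1 by 0.908 ± 0.189 (adjusted p = 0.0438, against 0.272 with all arrays). It was at 4.51, 4.62 and 4.64 in Adenoma, near the median level of 4.64 of all tested probe sets. In FP_hi it was at 4.5, 5.86, 5.47 and 5.16, so the array left out was below every adenoma. Of 8 measured carriers of electrons and adenine nucleotides, none was called between Adenoma and FP_lo, against 0.551% of all tested probe sets. Slc25a4, an ADP/ATP carrier of heart and muscle, was at 7.58, 7.51 and 6.96 in Adenoma, against 5.31, 5.64, 2.17, 6.19, 5.42 and 6.63 in FP_lo (difference 2.12 ± 0.772, adjusted p = 0.468). All 3 adenomas lay above FP_lo, whose replicate 3 was far below the rest. The list's median was -0.295.

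A few markers of other cell types differed between Adenoma and FP_lo. Dcn, a proteoglycan of fibroblasts, was at 7.62, 6.14 and 4.41 in Adenoma, against 3.35 to 3.96 in FP_lo, and rose by 2.46 ± 0.479 (adjusted p = 0.041). Ptprc, the pan-leukocyte protein CD45, was at 5.29, 4.77 and 5.07 in Adenoma, against 3.75 to 4.31 in FP_lo, and rose by 1.00 ± 0.173 (adjusted p = 0.0191). Cdh5, a marker of endothelium, was at 5.28, 5.25 and 4.81 in Adenoma, against 3.98 to 4.51 in FP_lo, without overlap. Its difference was 0.877 ± 0.215 (adjusted p = 0.129, and 0.0173 without FP_hi replicate 1). The lists as a whole did not go the same way, with 6 of 8 markers below 0 in each and medians of -0.0697 for fibroblasts and endothelium and -0.0959 for leukocytes. Lyz2, a lysozyme listed with the leukocyte markers, differed by -2.39 ± 0.575 (adjusted p = 0.123, and 0.0214 without FP_hi replicate 1). Lyz1, the lysozyme listed with the Paneth and goblet cell markers, differed by -2.41 ± 0.811 (adjusted p = 0.39, and 0.0236 without that array). Of the 7 markers in the list of Lyz1, 4 were below 0 and 3 above. Which cells the Lyz2 level comes from was not tested. The 8 markers of fibroblasts and endothelium averaged 4.52 to 5.04 in Adenoma, 4.4 to 4.7 in FP_hi and 4.27 to 4.67 in FP_lo, and the 8 of leukocytes averaged 4.46 to 4.54, 4.72 to 5.37 and 4.42 to 4.93 in the same order. Col1a1 and Cd3e, defining markers of fibroblasts and T cells, were at 5.42 to 5.61 and 4.65 to 5.03 in Adenoma, against 5.31 to 5.78 and 4.92 to 5.29 in FP_lo. Markers of Paneth and goblet cells averaged 9.31, 9.51 and 10.2 in Adenoma, against 9.93 to 10.5 in FP_lo, and Adenoma replicate 1, with the lowest subunit levels of the adenomas, was also lowest for these and highest for Dcn. The part of cell content in the subunit levels was not tested.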

How the data were processed

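The authors deposited log2 expression levels of 35556 probe sets for each of 13 arrays. Affymetrix Command Console is named in the design text, and Expression Console and Transcriptome Analysis Console are named in the submitters' processing notes. How background, normalization and summarisation were handled, and with which versions, is not given in the sources used here, and the log2 scale was read from the values. The number of arrays limits precision.

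Gene names came from the platform annotation, and 23410 probe sets with at least 1 symbol were tested, with no filter on level. Group means were compared in R 4.3.3 with limma 3.58.1 (lmFit, eBayes, two-sided, all 13 arrays in 1 model), with Benjamini-Hochberg adjustment over all of them. The scripts were tested on simulated data. The members and gene lists were chosen with earlier results of these data known. Named were core subunits, tissue forms and their counterparts, the 4 members of smallest p per direction and comparison, the 3 highest and 3 lowest in level, and the 3 with the largest and smallest SD in FP_lo. From pathway lists, called genes and the 2 of smallest p per direction could be named.

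Deviations of same-numbered arrays from their group means had correlations of 0.233, 0.102 and 0.22 between Adenoma and FP_hi, all over 0.1. They were -0.361 to 0.178 between FP_hi and FP_lo and -0.116 to 0.0611 between Adenoma and FP_lo. By this rule, only for Adenoma against FP_hi does the fit with the replicate as a block stand beside the results. Arrays of different numbers were not compared in this way, so the correlations cannot show that same-numbered arrays are paired. The labels do not state a pairing. The alternatives were 7 other settings and leaving out each of the 13 arrays. The fuller results without FP_hi replicate 1 were added after the data had been seen. Promoters came from RefSeq (GRCm38.p6) and matched 67 members by Entrez gene number. The other 16 are Atp5a1, Atp5mpl, Cox4i1, Cox4i2, Cox6a2, Cox6c, Cox8c, Cyc1, Ndufa2, Ndufa4l2, Ndufb9, Ndufs1, Sdhc, Uqcrb, Uqcrc2 and Uqcrq.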

Additional observations from a re-analysis of the deposited data

Results flagged for a closer look

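Values far from the rest of their group, by Dixon's criterion at the 95% level, are listed here. Chance alone marks about 1 in 20 groups. FP_hi replicate 1 was the low array most often, for 24 of the 83 genes. Its values were 10.94 for Ndufa4 and 6.73 for Ndufv2. In complex III they were 5.31 for Cyc1 and 7.78 for Uqcrc2. In complex IV they were 9.74 for Cox5b, 7.89 for Cox6a1, 8.86 for Cox6b1, 5.6 for Cox7a1, 7.53 for Cox7a2, 8.0 for Cox7a2l and 6.41 for Cox8a. In ATP synthase they were 9.56 for Atp5c1 and 10.33 for Atp5j2. The median deviation from the FP_lo mean on that array was -2.03 over all members, -2.12 over complex I and -1.42 over complex IV. The value for complex IV includes its dim forms Cox4i2, Cox7b2, Cox8b and Cox8c. FP_hi replicate 3 was low for Cox6a2, at 5.21.

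Within FP_lo, replicate 5 was low for Cyc1, at 8.75, and for Cox6a1, at 10.63, and for 6 of the 83 genes in all. FP_lo replicate 3 was high for Cox6b2, at 6.63. What set these arrays apart was not tested.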

How the results depend on the processing

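With 3 to 6 arrays a group and an unstated normalization, only large differences in these genes could pass the threshold, and 1 array decided several values. The median member difference between FP_hi and FP_lo was 0.0469 after quantile normalization and -0.043 with array quality weights, against -0.519, and it ran from -0.735 to 0.0207 when single arrays were left out, the highest without FP_hi replicate 1. The median between Adenoma and FP_hi was -0.16, -0.19 and -0.229 to 0.392 in the same order, the lowest without that array. The median between Adenoma and FP_lo ran from -0.317 to -0.127. The number of members called stayed at 0 when single arrays were left out (0 to 0 in all 3 comparisons). Under the other settings it was above 0 only for Adenoma against FP_lo. With weights, 3 of 83 members were called (Ndufs8, Ndufa10 and Atp5g2), against 868 of the 23410 tested probe sets. With only the compared groups fitted, it was 2 of 83 (Ndufs8 and Ndufa10), against 343 of 23410. Whether members were called more often than other probe sets was not tested.

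Of all probe sets, between FP_hi and FP_lo 4 were called after quantile normalization and 3 with weights, and 0 to 136 without single arrays, the most without FP_hi replicate 3. Between Adenoma and FP_lo, 78 were called among probe sets at or above the median level, 868 with weights, 343 with only the compared groups, and 78 (without Adenoma replicate 2; 82 without replicate 1) to 370 (without FP_hi replicate 1). Between Adenoma and FP_hi, 594 were called with weights, 46 with only the compared groups, and 72 (without Adenoma replicate 1; 88 without replicate 2) to 281 (without FP_hi replicate 3). The cause of these shifts was not tested.

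With the replicate number as a block, 37 probe sets were called between Adenoma and FP_lo and 51 between Adenoma and FP_hi, and no member was called in any comparison. The medians under the block were -0.554, -0.258 and 0.229 for FP_hi against FP_lo, Adenoma against FP_lo and Adenoma against FP_hi. Differences of single named members under all settings were set against the standard error of the main fit, which FP_hi replicate 1 enters. Of these, 2459 shifted by less than that standard error and stayed on their side of the threshold. A further 163 moved by more, and 3 newly passed the threshold.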
